A study of Mus musculus with 205 samples.

Results

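Nd4 and Nd5 are mtDNA genes of mouse, each targeted by 4 pairs of cytosine base editors in a 7-d screen and by 1 of these pairs in a 14-d experiment. The members were chosen by target gene: pairs 33, 34, 59 and 60 for Nd4 and pairs 37, 38, 63 and 64 for Nd5, together with the 14-d samples of pairs 60 and 64. They are 14 of the 205 samples of the study, 7 for each gene, of which 4 are screening samples and 3 are 14-d samples. The study built a library of such pairs to introduce a premature stop codon into each of the 13 protein-coding genes of mouse mtDNA. The screen holds 52 pairs with 1 sample each, and the 14-d experiment holds the 13 lead pairs with 3 samples each.

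All of these samples are NIH/3T3 cells, an immortalised mouse embryonic fibroblast line with no further genetic change named in the labels. The edited cells received a plasmid for each monomer of the pair, with GFP beside the monomer that binds the L strand and mCherry beside the one that binds the H strand. Cells carrying both markers were sorted 1 d after transfection and grown until 7 d in the screen or 14 d in the lead-pair experiment. The controls are cells whose label reads WT and gives the pair as empty, here called empty vector, with 2 samples at 7 d and 3 samples at 14 d. Editor expression was transient, and each sample is a population that mixes edited and unedited mtDNA. The 14-d samples are called repeats in the labels and technical replicates in the study's legend to their on-target values, so their spread and the p-values resting on it may measure technical error alone.

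Nd4 and Nd5 encode core subunits of respiratory complex I, which takes electrons from NADH and pumps protons across the inner mitochondrial membrane. Both proteins lie in the membrane arm of the complex and belong to a family related to bacterial cation antiporters. A DdCBE joins a TALE array, which reads a DNA site, to one part of a split bacterial deaminase that acts on double-stranded DNA. The deaminase becomes active where both parts meet, and the C is read as T after replication. It prefers a C that follows a T. In the vertebrate mitochondrial code TGA is read as Trp, and a change of the C opposite its G leaves TAA, a stop codon.

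The target codons are shown here because the on-target values measure the change of a single base in each. In the reference mtDNA (GRCm38, chromosome MT, plus strand), Nd4 spans positions 10167 to 11544 and Nd5 spans 11742 to 13565. The windows below run 5′ to 3′ on the plus strand, from MT:10183-10243 for Nd4 and from MT:11914-11974 for Nd5, with the TGA codon in capitals and the edited form under each.
Nd4: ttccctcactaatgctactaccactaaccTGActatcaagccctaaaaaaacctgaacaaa
Nd4 edited: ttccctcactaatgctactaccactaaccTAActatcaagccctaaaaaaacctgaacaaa
Nd5: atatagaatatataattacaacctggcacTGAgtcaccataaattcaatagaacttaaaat
Nd5 edited: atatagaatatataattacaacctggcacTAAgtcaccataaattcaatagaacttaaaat

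Both targets are exonic and coding. The change is G10213A in codon 16 of the 459 of Nd4, so 3.27% of the codons stand before the stop, and G11944A in codon 68 of the 607 of Nd5, with 11.04% of the codons before it. Each is the first TGA codon of its frame, which holds 12 TGA codons in Nd4 and 10 in Nd5. On the other strand the edited C is the middle base of TCA in both genes. The Nd4 start overlaps the end of Nd4l by 7 bases, and the Nd4 target lies 40 bases past that end. The 61-base window of Nd4 holds 24 C:G pairs and that of Nd5 holds 16, and in each window 5 of them, the target included, have a T before the C. The nearest other C of this kind lies 6 bases after the target in Nd4 and 4 bases after it in Nd5, on the plus strand in both cases. Over the whole mtDNA of 16299 bp, 1747 of 5989 C:G pairs (29.2%) have a T before the C.

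Each gene had 2 TALE arrays on the L strand, L1 and L2, and 2 on the H strand, H1 and H2, and the 4 pairs are all of their combinations. In both genes the design places L2 nearer to the target than L1 and H1 nearer than H2. Nd4 pair 33 is L1 with H1, pair 34 is L2 with H2, pair 59 is L2 with H1 and the lead pair 60 is L1 with H2. Nd5 pairs 37, 38, 63 and the lead pair 64 follow the same scheme in the same order. All 8 pairs carry the C-terminal part of the deaminase on the L array and the N-terminal part on the H array. Pairs of a gene share arrays, so they are not independent samples of the gene.

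For each sample the tables give an on-target value, the percent of reads with the edited base, and an off-target value, the mean frequency, in percent, of C:G-to-T:A changes across mtDNA. They also give the mean coverage. Which positions entered the off-target average is not stated in the sources used here. Mean coverage ranged from 108 to 18082 for the 8 pairs in the screen, over 3 sequencing runs that the tables code MS1, MS2 and MS3, and from 2561 to 93517 for the 6 samples at 14 d, all in 1 run. The tables do not give the depth at the edited base, which leaves single values without an interval, and screening values carry no replicate error.

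Nd4 and Nd6, both complex I genes, had the lowest on-target means of the screen. The Nd4 pairs gave 58.4% on target (pair 33), 24.1% (pair 34), 35.4% (pair 59) and 58.3% (pair 60). The Nd4 pairs fall into 2 levels, with both L1 pairs close together and both L2 pairs well under them. Their mean of 44.0% ± 17.1 (SD, n = 4 pairs) stood beside 44.9% ± 8.38 for Nd6, and by median Nd4 was above Nd6, at 46.8% against 45.1%. The 48 pairs of the other genes averaged 69.3% ± 18.1, a difference of −25.3 percentage points for Nd4. With the mean of each gene as 1 value, the difference did not pass the test (exact permutation test of 1 gene against 12, two-sided, p = 0.0769, adjusted p = 0.231 over 6 screening tests), and 0.0769 is the smallest p that 13 genes allow. With single pairs as the unit, p was 0.0099 (exact permutation test of 4 against 48 pairs, adjusted p = 0.0297). That test treats pairs that share arrays and a target as independent, so its p does not measure a difference between genes. With run as a block the pair-level difference was −24.7 points (adjusted p = 0.0264). The pair-level p missed the threshold on the log2 scale (adjusted p = 0.0506), against the other complex I pairs alone (adjusted p = 0.0828), without pairs under a mean coverage of 300 (adjusted p = 0.112), by medians (adjusted p = 0.0967), without pair 34 (adjusted p = 0.146) and without pair 59 (adjusted p = 0.216).

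Nd5 pairs averaged close to the rest of the screen. They gave 53.7% (pair 37), 78.2% (pair 38), 79.2% (pair 63) and 58.2% (pair 64), again at 2 levels, but here with the L2 pairs on top. The mean was 67.3% ± 13.3 (SD, n = 4 pairs) for Nd5, 7th of 13 genes, against 67.4% ± 19.6 for the other 48 pairs (difference −0.0130 points, exact permutation p = 0.999). This pair-level p has the same limit as that of Nd4, since pairs of a gene share arrays. Among the 52 pairs of the screen, the Nd5 pairs stood between place 18 (pair 63) and place 41 (pair 37) from the top, and the Nd4 pairs between place 37 (pair 33) and place 51 (pair 34). The other 44 pairs, which target neither gene, ranged from 17.6 to 93.6% with a median of 74.7%.

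**Figure D1:**
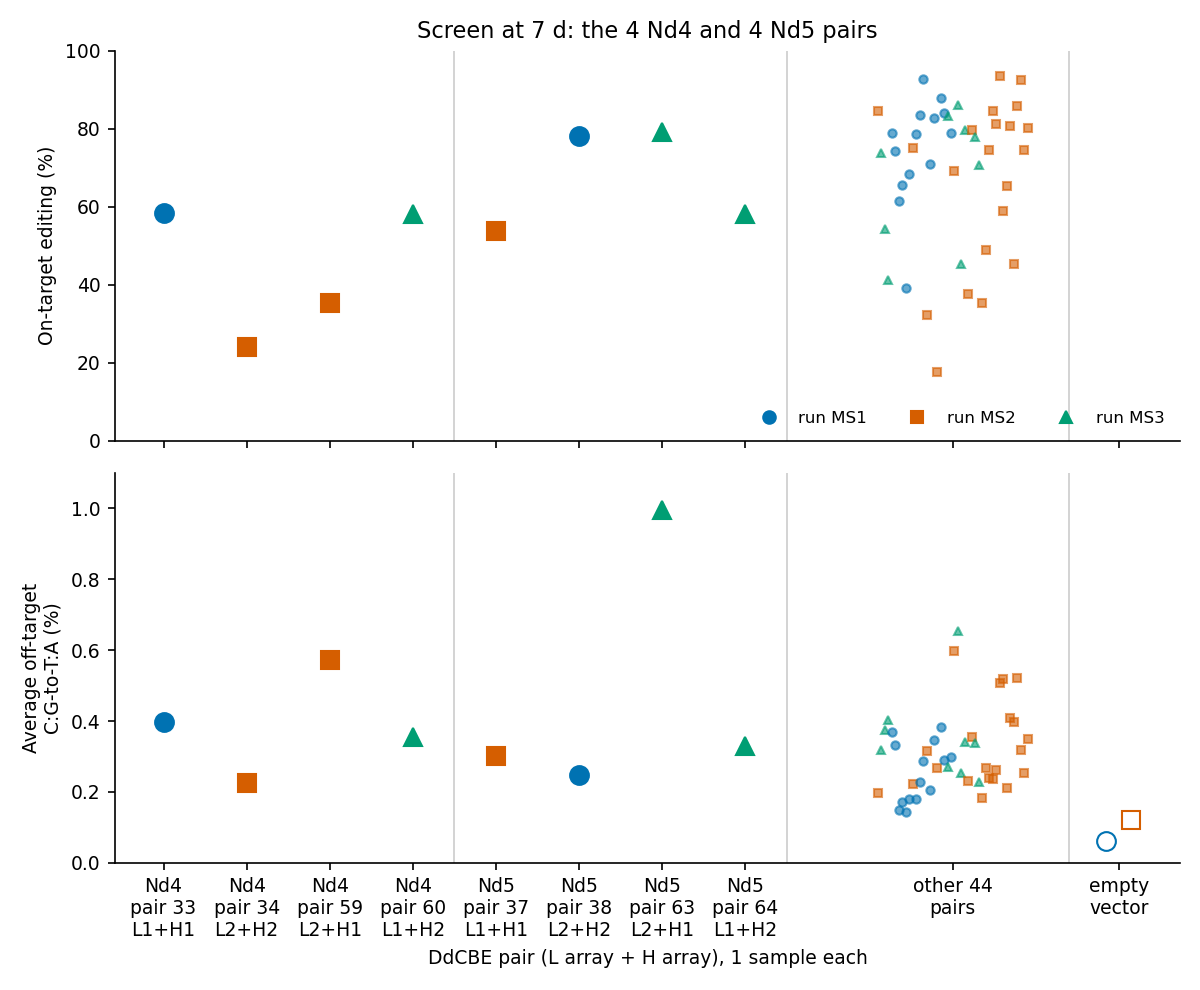
On-target editing (top, percent of reads) and average off-target C:G-to-T:A frequency (bottom, percent) of the screen at 7 d, 1 point per sample. Nd4 and Nd5 pairs come first, then the other 44 pairs (spread sideways by pair number) and the empty vectors (open symbols, off target only), with colour and shape for the sequencing run. Nd5 pair 63 stands at 0.995%, above all other pairs, and Nd4 pairs 34 and 59 lie among the lowest on target.

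The highest average off-target frequency of the 52 pairs belonged to Nd5 pair 63, at 0.995%. Its run, MS3, had a median of 0.339% over its pairs, against 0.268% in MS1 and 0.285% in MS2. The sister pairs had 0.301% (pair 37, MS2), 0.248% (pair 38, MS1) and 0.329% (pair 64, MS3). Pair 63 thus stood 4.02-fold above the lowest Nd5 pair, which was in another run, and its sister pairs lay close together. The next highest pairs of the screen were Nd1 pair 54 at 0.653%, Nd1 pair 53 at 0.599% and Nd4 pair 59 at 0.573%. The other Nd4 pairs had 0.398% (pair 33), 0.224% (pair 34) and 0.356% (pair 60), and the Nd4 pairs thus spanned 2.56-fold. The 44 pairs of other genes ranged from 0.142 to 0.653%, with a median of 0.289%.

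The off-target means of the 2 genes were not separated from the rest of the screen by the pair-level test, nor with genes as the unit (exact permutation, adjusted p = 0.692 for Nd4 and 0.308 for Nd5). The pair-level test has the same limit as on target, since pairs of a gene share arrays. Nd4 averaged 0.388% ± 0.144 (SD, n = 4 pairs), rank 3 among the 13 genes, against 0.322% ± 0.149 for the other 48 pairs (difference 0.0655 points, exact permutation p = 0.364, adjusted p = 0.443). Nd5 averaged 0.468% ± 0.353, rank 2 among the genes, against 0.316% ± 0.119 for the other 48 pairs (difference 0.153 points, exact permutation p = 0.0525, adjusted p = 0.105). Without pair 63 the Nd5 difference was −0.0231 points.

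All 5 Nd4 and Nd5 pairs sequenced in a run with an empty vector were above it, as were all 40 such pairs of the screen (100%), so this count says nothing particular to them. The empty vectors had 0.0616% in MS1 and 0.121% in MS2, and MS3, the run of pairs 60, 63 and 64, had none. Nd4 pair 33 was 6.47-fold above the empty vector of MS1, first among the 40 pairs, and Nd5 pair 38 was 4.02-fold above it. In MS2 the fold was 4.72 for Nd4 pair 59, 2.48 for Nd5 pair 37 and 1.84 for Nd4 pair 34. Since the MS2 empty vector was the higher of the pair, folds of different runs are not on one scale. By the excess in percentage points, pair 33 came sixth, pair 59 second, pair 38 at place 20, pair 37 at place 21 and pair 34 at place 34.

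The off-target cost of a pair was taken as the off-target value in percent of the on-target value (the cost values below are in this unit). No background was subtracted, so background adds more to the cost of a pair with a low on-target value. Nd4 pairs 33, 34 and 59 had 0.398%, 0.224% and 0.573% off target, beside 0.0616%, 0.121% and 0.121% in the empty vectors of their runs. The cost also shares its on-target values with the on-target tests above. Nd4 had the highest mean cost of the 13 genes, with 0.682 for pair 33, 0.929 for pair 34, 1.62 for pair 59 and 0.611 for pair 60. Pair 59 was the costliest of the 52 pairs and pair 33 the costliest of the 16 in its run. The mean cost was 0.960 ± 0.459 (SD, n = 4 pairs) for Nd4, against 0.503 ± 0.273 for the other 48 pairs (difference 0.457). With genes as the unit this did not pass the test (exact permutation p = 0.0769, the smallest possible, adjusted p = 0.231). The pair-level p, with the same limit as on target, was 0.0096 (exact permutation, adjusted p = 0.0297). It stayed under the threshold with run as a block (difference 0.441, adjusted p = 0.0264) and on the log2 scale (adjusted p = 0.0356). It missed the threshold against the other complex I pairs alone (adjusted p = 0.0818), by medians (adjusted p = 0.0967) and without pair 34 (adjusted p = 0.0807), and without pair 59 the difference was 0.238 (adjusted p = 0.341). Pair 59 had a mean coverage of 108, the second lowest of the 52 pairs, and without pairs under a coverage of 300 the difference was 0.233 (adjusted p = 0.248).

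In Nd5 the cost was 0.561 for pair 37, 0.317 for pair 38, 1.26 for pair 63 and 0.565 for pair 64, a mean of 0.675 ± 0.405 against 0.527 ± 0.304 for the other 48 pairs (difference 0.148, exact permutation p = 0.369, adjusted p = 0.443). This pair-level p has the same limit as on target. Pair 63 was the third costliest of the 52 pairs, and without it the Nd5 difference was −0.0459. Pair 38 combined an on-target value within 1.03 points of pair 63 with the lowest off-target value of the gene. Against the lead pair 64, pair 38 was 20.0 points higher on target and differed by −0.0812 points off target, each as 1 sample and in different runs. The study chose its lead pairs by on-target editing and a score of the more frequent off-target changes. That score is another measure than the average used here, and it was not computed. In Nd4 the lead pair 60 had the lowest cost of the 4, and its on-target value was 0.106 points under that of pair 33.

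The pairs of Nd5 were spread more widely off target than those of any other gene. On target, the Nd4 pairs spanned 34.3 points, rank 5 among the 13 genes after CoIII (65.1 points), Nd3 (42.1), CoII (38.8) and Nd2 (34.4), and the Nd5 pairs spanned 25.5 points, rank 6. Off target, the Nd5 pairs spanned 0.748 points, first among the genes, and the Nd4 pairs 0.349 points, second. The Nd5 spread rests on the single sample of pair 63, since the other Nd5 pairs ran from 0.248 to 0.329%. By SD, Nd4 ranked 4 both on and off target, and on the log2 scale it ranked 2 in both, while Nd5 remained first off target in each. Among the other 5 complex I genes, 2 had a wider on-target range than Nd4, the same number had a wider one than Nd5, and 0 had a wider off-target range than either. Those 5 genes have 20 pairs, whose off-target values ran from 0.142 to 0.653% with a median of 0.294%.

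Sorted by array, the pairs of Nd4 and Nd5 went in opposite directions on target. In Nd4, exchanging L1 for L2 went with a change of −22.9 points beside H1 and −34.2 points beside H2, and the L2 pairs averaged 29.8% against 58.3% for the L1 pairs. In Nd5 the same exchange went with 25.5 points beside H1 and 20.0 points beside H2, and the L2 pairs averaged 78.7% against 56.0% for the L1 pairs. These mean differences, −28.5 points in Nd4 and 22.8 points in Nd5, were the largest and the second largest in size of the 13 genes. After subtraction of the run means they were −20.8 and 17.2 points. Both L2 pairs of Nd4 were sequenced in MS2 and neither L1 pair was, so L array and run cannot be told apart in that gene. In Nd5 each exchange also crossed runs, with pair 63 in MS3 against 37 in MS2, and pair 38 in MS1 against 64 in MS3. Pair 37 had a mean coverage of 225. The H array went with smaller on-target differences, H1 minus H2 being 0.106 points beside L1 and 11.3 points beside L2 in Nd4, and −4.47 and 1.03 points in Nd5. The 2 highest on-target pairs shared an L array in 6 of the 13 genes, these 2 included, and an H array in the other 7.

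Off target, it was the combination of L2 with H1, the arrays nearest to the target, that stood out in both genes. In Nd5 this pair had 0.995% against 0.329% for L1 with H2, a ratio of 3.03 within run MS3 and the largest of the 13 genes, beside mean coverages of 11637 and 18082. In Nd4 it had 0.573% against 0.356%, a ratio of 1.61 between runs MS2 and MS3, and larger ratios were found in Nd5, CoII (2.45) and Atp6 (1.64). Within MS2, the Nd4 pair of L2 with H1 had 0.573% against 0.224% for L2 with H2, at mean coverages of 108 and 818. H1 was 0.349 points above H2 beside L2 in Nd4 and 0.748 points in Nd5, whereas beside L1 the difference was 0.0421 and −0.0276 points. Of these, only the Nd4 difference beside L2 lay within a run. The runs had mean off-target values of 0.263% (MS1), 0.331% (MS2) and 0.405% (MS3) over all their pairs. L2 with H1 was the highest pair off target in 6 of the 13 genes. The ratio to L1 with H2 ran from 0.516 to 3.03 with a median of 1.02, and 7 of 13 genes had L2 with H1 above L1 with H2. A high value for this combination of array names was thus no rule of the screen. Which arrays lie nearest to the target in the other genes was not compared. On target, L2 with H1 minus L1 with H2 was −22.8 points in Nd4 and 21.04 points in Nd5.

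**Figure D2:**
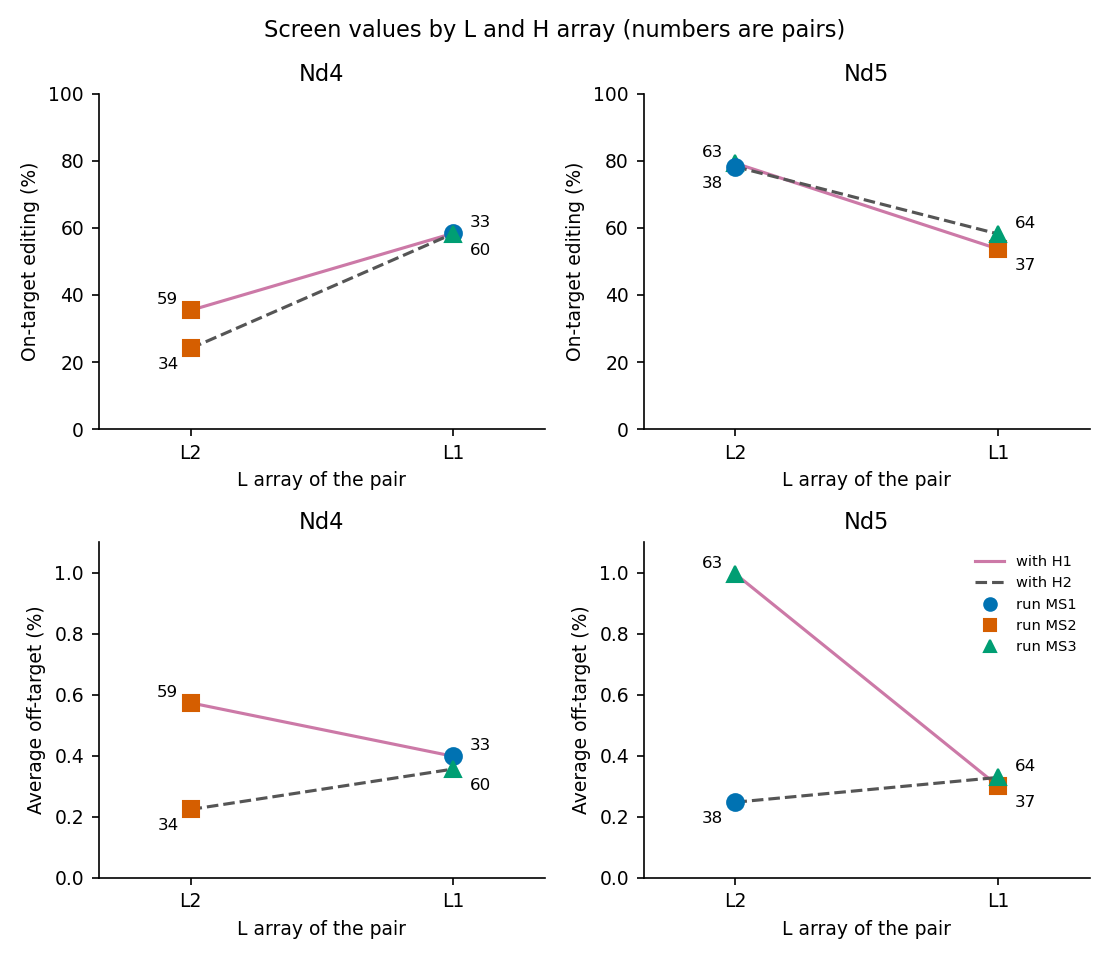
On-target editing (top) and average off-target frequency (bottom), both in percent, of the 4 Nd4 pairs (left) and the 4 Nd5 pairs (right) by L array, with a line for each H array; numbers are pairs, and colour and shape give the run. On-target lines run in opposite directions in the 2 genes, and off target the L2 with H1 pairs (59 and 63) stand highest at 0.573 and 0.995%.

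**Figure D3:**
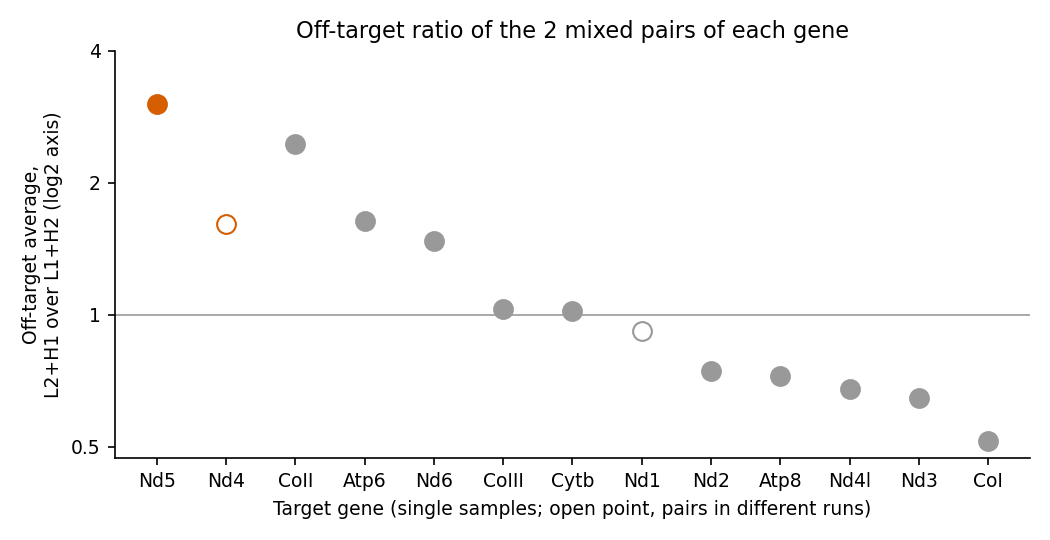
Ratio of the off-target average of L2 with H1 over L1 with H2 for each of the 13 genes, on a log2 axis, from single samples; Nd5 and Nd4 are shown first in orange, and open points mark pairs sequenced in different runs. Nd5 has the highest ratio, 3.03, and Nd4 the fourth, 1.61.

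The off-target values showed a crossing of the arrays that Nd4 and Nd5 had in common with most genes. L2 was above L1 beside H1, by 0.175 points in Nd4 and 0.694 points in Nd5, and below L1 beside H2, by −0.132 and −0.0812 points. The same 2 signs were present in 11 of the 13 genes. The L1 with H1 and L2 with H2 pairs of the 13 genes were sequenced in MS1 in 16 cases, MS2 in 6 and MS3 in 4, and the mixed pairs (L2 with H1, L1 with H2) in MS1 in 0 cases, MS2 in 18 and MS3 in 8. The part of the run in this pattern was not tested.

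At 14 d the lead pairs of Nd4 and Nd5 gave nearly the same on-target value. The 3 samples of Nd4 had 49.0%, 49.9% and 47.0%, and those of Nd5 had 48.5%, 50.1% and 48.9%. The samples of the 2 genes overlap, with a mean of 48.6% ± 1.5 for Nd4 and 49.15% ± 0.84 for Nd5 (SD, n = 3 each). The difference of −0.543 points was within the spread between samples (exact permutation p = 0.70, adjusted p = 0.77 over 11 tests at 14 d), and with the Nd4 sample of low coverage left out its sign turned, to 0.277 points.

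Among the 13 lead pairs, Nd5 stood 11th and Nd4 12th on target. Nd6, encoding another membrane-arm subunit, was below them at 38.3%, and Nd4l, whose small product lies in the same arm, was next above at 50.7%. Nd4 exceeded Nd6 by 10.3 points and Nd5 minus Nd4l was −1.59 points. In both comparisons the samples did not overlap, but 3 against 3 samples cannot give a p under 0.10, the value found here (exact permutation test, adjusted p = 0.122). Nd6 and Nd4l were picked from the order of these same means, so the tests describe the spread between samples only. Of the other complex I lead pairs, Nd1 averaged 60.4%, Nd2 56.3% and Nd3 63.3%, so 4 of these 5 were above Nd4, and 4 of 5 above Nd5.

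Off target at 14 d, Nd4 had 0.119%, 0.120% and 0.0943% and Nd5 had 0.0859%, 0.0857% and 0.0877%, against 0.0240%, 0.0240% and 0.0235% in the empty vector. All samples of both genes lay above all empty-vector samples, which was true of all 13 lead pairs (100%), so it does not set Nd4 or Nd5 apart. The means were 0.111% ± 0.0145 for Nd4 and 0.0864% ± 0.0011 for Nd5, against 0.0238% ± 0.00028 for the empty vector (SD, n = 3 each). That is 4.66-fold over the empty vector for Nd4 and 3.63-fold for Nd5. With the 2 empty vectors of the screen added, which come from other runs and 7 d, the folds were 2.18 for Nd4 and 1.70 for Nd5. The differences from the empty vector were 0.0873 points for Nd4 and 0.0626 points for Nd5, each at the smallest p that 3 against 3 samples allow (exact permutation p = 0.10, adjusted p = 0.122). With the screening empty vectors added, the differences were 0.0602 points for Nd4 (exact permutation p = 0.0893) and 0.0355 points for Nd5 (exact permutation p = 0.196).

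One Nd4 sample stood apart in depth. Replicate 3 had a mean coverage of 2561, against 69483 and 67777 for the other Nd4 samples, 26.5-fold under the lower of these, and the next lowest of all 42 samples of the experiment was at 31439. Its off-target value was 21.1% below the mean of the other 2, and its on-target value was the lowest of the 3. The Nd5 samples had coverages of 93517, 63859 and 65915. The coefficient of variation off target was 13.1% for Nd4, first of the 13 lead pairs, and 1.25% for Nd5, 12th. Without replicate 3, Nd4 averaged 49.4% on target and 0.119% off target, 5.01-fold over the empty vector. The part of the low coverage in these values was not tested.

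**Figure D4:**
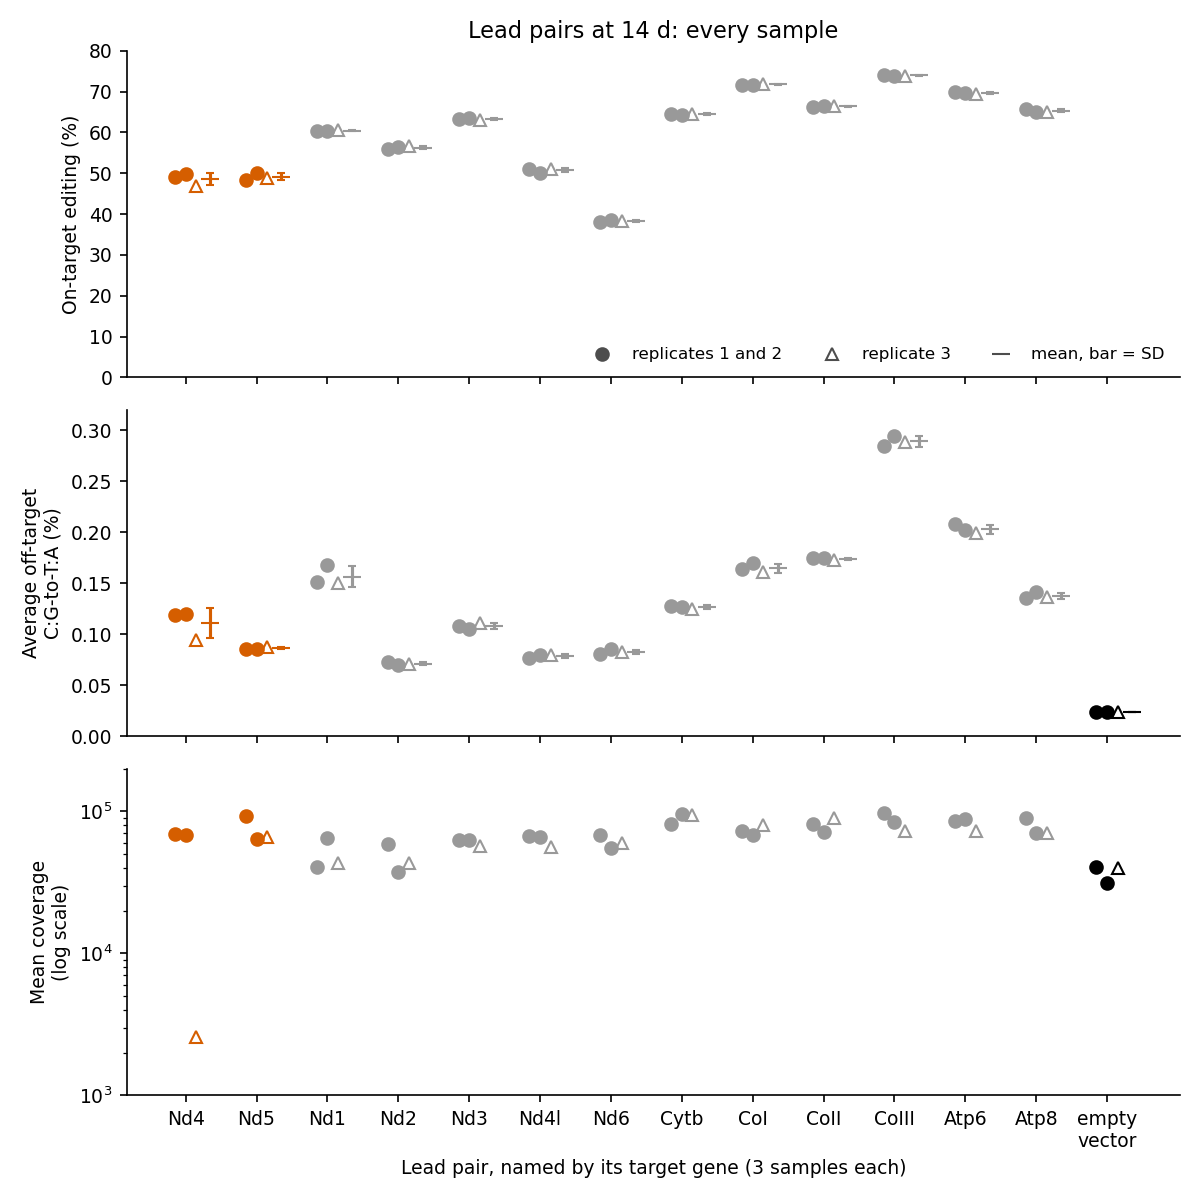
On-target editing (top, percent), average off-target frequency (middle, percent) and mean coverage (bottom, log axis) of every 14-d sample, 3 per lead pair, with Nd4 and Nd5 in orange at the left and the empty vector in black at the right; bars are the SD around the mean, and triangles mark replicate 3. The Nd4 replicate 3 lies at a coverage of 2561 and at 0.0943% off target, below the other 2 Nd4 samples in both.

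Nd4 was above Nd5 in off-target frequency by 0.0247 points and in cost by 0.0523, with 0.228 ± 0.0237 for Nd4 and 0.176 ± 0.0043 for Nd5 (SD, n = 3 each). No samples overlapped in either measure, and both tests gave the smallest possible p (exact permutation p = 0.10, adjusted p = 0.122). In the order of the 13 off-target means, Nd4 came 8th and Nd5 10th. Nd3 stood between them at 0.108%, and its samples overlapped those of Nd4 (difference 0.00282 points, exact permutation p = 0.90, adjusted p = 0.90). Cytb, which encodes the mtDNA-encoded subunit of complex III, was next above Nd4 (Nd4 minus Cytb −0.0155 points). Nd5 minus Nd6 was 0.00361 points and Nd5 minus Nd3 was −0.0219 points, without overlap (exact permutation p = 0.10 for these 3 differences, adjusted p = 0.122). Nd3, Cytb and Nd6 were picked as neighbours from these same means, so their tests describe the spread between samples only. Of the other complex I genes, Nd1 at 0.157% exceeded Nd4, and Nd1 and Nd3 exceeded Nd5, while Nd2 (0.0714%), Nd4l (0.0787%) and Nd6 (0.0828%) were below both.

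Taking both measures at 14 d, each in units of its SD over the 13 lead pairs, the pair nearest to Nd4 was Nd5 at a distance of 0.408, followed by Nd4l at 0.567. The pair nearest to Nd5 was Nd4l at 0.196, followed by Nd4 at 0.408.

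The lead pairs can be set against their own screening sample, though the time and the sequencing run differ together. On target, Nd4 pair 60 averaged 48.6% at 14 d and had 58.3% at 7 d, a difference of −9.65 points, and Nd5 pair 64 averaged 49.15% at 14 d and had 58.2% at 7 d, a difference of −9.04 points. These drops were seventh and ninth in size among the 13 lead pairs. With a single sample at 7 d there is no test. Off target, Nd4 pair 60 had 0.111% at 14 d and 0.356% at 7 d, and Nd5 pair 64 had 0.0864% at 14 d and 0.329% at 7 d. The 7-d run of both pairs has no empty vector here, so the off-target values of the 2 times were not compared further. At 7 d the single samples of the 2 lead pairs differed by less than 0.1 points on target, with 58.26% for Nd4 and 58.19% for Nd5. At 14 d the samples of the 2 pairs overlapped.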

How the data were processed

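The on-target and off-target percentages and the coverage values were used as deposited, with 1 value of each per sample. To make the percentages, the authors amplified mtDNA as 2 overlapping long-range PCR products, prepared libraries with Nextera XT for sequencing on MiSeq (screen) or NovaSeq (14 d), trimmed reads with Trim Galore, aligned them with Bowtie2 to GRCm38 mtDNA and read base frequencies from a samtools pileup with varscan. Low-frequency averages of this kind also hold PCR and sequencing error. The empty vectors hold this error together with the natural background heteroplasmy for which the study uses its wild-type controls. The coverage (signal) is the authors' mean depth, not normalized; versions of these tools are not given in the labels. The deposited quality score has no definition in the sources used here and was not used. Columns of other constructs, mice and nuclear DNA were not used here.

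Samples were grouped by labels, and every table entry matched 1 sample. Computed here were means, SDs (n − 1), ratios, ranks and the off-target value as a percent of the on-target value. Exact two-sided permutation tests compared the 4 pairs of a gene with the 48 others (270725 splits) and groups of 3 at 14 d (20 splits), with Benjamini-Hochberg adjustment over 6 and 11 tests and a threshold of 0.05. The tests were tried on simulated independent values, so this check does not cover pairs that share arrays or a target. Python 3.11.15, numpy 2.4.6, scipy 1.17.1 and matplotlib 3.10.9 were used. Target codons were located as the first TGA of each frame in the RefSeq sequence of GRCm38, the authors' build. Arrays of each pair follow the study's design drawing; sequences of the TALE sites are not printed.

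Named are all 8 pairs, both lead pairs, the empty vectors, neighbours of Nd4 and Nd5 in the 14-d order, genes with a wider range or larger array ratio, and the other complex I genes. Nd1 pairs 53 and 54 and the array comparisons were added after their values were seen. The members and lists were chosen with earlier results of these data known. Alternatives covered run, scale, comparison set, coverage, single pairs or replicates, medians, the replicate block and the choice of empty vectors; leaving out the Nd4 sample of low coverage alone, and testing gene means (1 against 12) in place of pairs, were added after the data were seen.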

Additional observations from a re-analysis of the deposited data

Results flagged for a closer look

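Nd5 pair 63 stood far from the other Nd5 pairs off target, at 0.995% against 0.329% for the nearest. The gap was 0.891 of the range of the 4 pairs, past Dixon's critical value for 4 values. It was the only one of 26 sets of 4 pairs to pass, where chance alone flags about 1 in 20, and the 4 pairs are different constructs rather than replicates.

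On target, L2 pairs minus L1 pairs had opposite signs in the 2 genes, −28.5 points in Nd4 and 22.8 points in Nd5, beside either H array. The difference between the genes was not tested. In Nd4 both L2 pairs and neither L1 pair were in run MS2, so array and run cannot be told apart. The Nd5 pairs compared beside each H array were also in different runs. After subtraction of run means the values were −20.8 points in Nd4 and 17.2 points in Nd5.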

How the results depend on the processing

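Only 2 results were under the threshold, both from the screen with pairs as the unit: on target for Nd4, which stayed under it in 3 of 10 alternatives, and the cost of Nd4, in 4 of 10. The 2 are not separate results, since the cost has the on-target value as its divisor. Off target itself, Nd4 was not under the threshold. Pairs of a gene share arrays, so these p-values do not measure a difference between genes. With genes as the unit, added after the results were seen, the differences were the same (−25.3 points and 0.457) and no p could reach the threshold. The cause was not tested for any of the other changes. The on-target value of Nd4 missed the threshold on the log2 scale (−0.68 log2), against the other complex I pairs (−20.2 points), at coverages of 300 or more (−22.4) and by medians (−27.9), and ran from −30.0 to −18.6 with 1 pair left out. The cost of Nd4 missed it against complex I pairs (0.437), by coverage (0.233) and by medians (0.374), and ran from 0.238 to 0.573 with 1 pair left out. Nd5 on target, near 0, turned to 0.061 on the log2 scale, 6.98 against complex I pairs and 4.21 by coverage, and ran from −3.98 to 4.53 with 1 pair left out. Leaving out 1 pair took the Nd5 off-target difference from −0.0231 to 0.226 and its cost from −0.0459 to 0.267.

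At 14 d, leaving out replicates took Nd4 minus Nd5 on target from −1.07 to 0.277 and Nd4 minus Nd3 off target from −0.00309 to 0.0127. With the replicate number as a block, Nd4 minus Nd5 stayed at −0.543 on target (exact sign-flip p = 0.75) and 0.0247 off target (exact sign-flip p = 0.25, the smallest possible). With groups of 3 or fewer samples no test at 14 d could reach the threshold, so those alternatives do not bear on a call. The numbers are not stated to pair samples: replicate 3 was the lowest of Nd4 off target and the highest of Nd5. With the screening empty vectors added, the differences from the empty vector were 0.0602 for Nd4 and 0.0355 for Nd5. That test of 3 against 5 samples could reach the threshold but did not (exact permutation, adjusted p = 0.179 for Nd4 and 0.196 for Nd5). The added empty vectors, at 0.0616% and 0.121%, come from other runs and another time. The test therefore cannot decide whether either gene lay above the empty vectors of its own run.

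In rank, the Nd4 on-target range went to 4 by SD and 2 on the log2 scale, its off-target range to 4 by SD, and the Nd5 on-target range to 7 on the log2 scale. By excess in place of fold, the rank was 6 for pair 33, 34 for pair 34, 2 for pair 59, 21 for pair 37 and 20 for pair 38. The Nd4 ratio of L2 with H1 over L1 with H2 ranked 3 after centring on runs, and the Nd5 drop from 7 to 14 d ranked 8 as a ratio. Excess over the empty vector could not be given for those ratios, since MS3 has none. Unknown depth at the targets limits all single values.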
